A study of Bos taurus with 30 samples.

Results

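Imprinted genes that act on growth were described in the bovine uterine lining: PEG3, DLK1, MEST, IGF2R, CDKN1C, PHLDA2, NNAT, SNRPN, PLAGL1 and SGCE. They were chosen by name and taken where the annotation of the array lists them. Of these 10 genes, 8 had a probe that carries the name of no other gene, with 10 probes between them, out of 8093 genes measured in that way. MEST is not in the annotation used here. SNRPN is listed only on a probe shared with SNURF, so no value is given for it. CDKN1C is listed under a pair of gene records with the same symbol and was treated as 1 gene.

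An imprinted gene is transcribed from the copy inherited from a single parent, because the copies differ in methylation or other marks set in the egg or the sperm. Many such genes act on the size of the fetus and the placenta. Genes expressed from the paternal copy, such as DLK1 and PEG3, tend to promote growth, and genes expressed from the maternal copy, such as CDKN1C, PHLDA2 and, in ruminants and rodents, IGF2R, tend to restrain it. Imprints of the embryo can be disturbed by in vitro culture and by nuclear transfer. The tissue measured here is the mother's endometrium, so the ratios describe maternal tissue unless fetal cells were taken with it. Whether each of these genes is transcribed there cannot be read from a ratio.

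The study asked how caruncular and intercaruncular endometrium differ in 3 kinds of bovine pregnancy. The caruncle is the raised, aglandular site where the ruminant placenta attaches, and the intercaruncular tissue between these sites holds the uterine glands. There were 5 animals with a pregnancy after artificial insemination (AI), 5 after transfer of an embryo fertilised in vitro (IVF-ET) and 5 with a clone made by somatic cell nuclear transfer (SCNT). Both tissues of an animal were hybridised together on 2 arrays, 30 in all. The labels give no stage of pregnancy, breed, age or donor cell line, and they do not say whether RNA of several sites was pooled. The whole tissue was measured, so fewer cells of a type and less RNA per cell cannot be told apart.

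Each value is a log ratio between the 2 tissues of 1 animal, read here as log2, since the labels do not give the base. The numerator of the ratio could not be established, so each value is described only by its sign as deposited, with no tissue attached to it. In 14 animals the tissues exchanged dyes between the arrays. IVF-ET replicate 3 carried the same labels on both arrays and was left out, which leaves 5 AI, 4 IVF-ET and 5 SCNT animals. Of the 30 arrays, each had a value for between 26744 and 27643 of 27648 spots, and the 10 probes had a value on every one. The 2 arrays of an animal correlated over probes at a median r of 0.126 over 14 animals, from -0.05 to 0.79, once the mean dye effect was taken off. This r ran from 0.02 to 0.35 in AI and from 0.12 to 0.79 in SCNT animals. In IVF-ET replicates 1, 2, 4 and 5 it was 0.42, -0.05, -0.0058 and 0.02. As deposited, r ran from -0.22 to 0.18 in AI, from -0.32 to 0.30 in IVF-ET and from 0.08 to 0.65 in SCNT animals. Among arrays with the same dye label, 2 of 91 pairs and 1 of 119 pairs correlated below -0.3. Over probes, the mean profile of AI animals had an r of -0.29 with that of SCNT animals and of -0.27 with that of IVF-ET animals, and the latter groups had an r of 0.45 with each other. Differences from the AI group are therefore also given with the sign of its values turned. Single AI animals were not alike in this. The r of their 2 arrays with the mean SCNT profile was 0.47 and -0.06 in replicate 1 and -0.06 and -0.20 in replicate 2. It was -0.32 and -0.42 in replicate 3, -0.56 and -0.17 in replicate 4 and 0.18 and 0.14 in replicate 5. Turning the whole group treats these animals as 1 block. The number of animals and this weak agreement between arrays limit the precision.

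CDKN1C was the 1 gene of the 8 that passed the test in a group. It encodes p57, an inhibitor of cyclin-dependent kinases that stops the cell cycle. In the SCNT animals its log2 ratio was -0.79, 0.05, -0.74, -0.62 and -0.97 in replicates 1 to 5. In the IVF-ET animals it was -0.0042, 0.17, -0.11 and -0.29 in replicates 1, 2, 4 and 5. In the AI animals it was -0.19, -0.22, 0.73, 0.14 and -0.23. SCNT replicates 1, 3, 4 and 5 thus lay below every IVF-ET and AI animal, and SCNT replicate 2 lay among them. The SCNT mean was -0.61 ± 0.15 (limma SE, n = 5), so the tissues differed 1.53-fold, with a limma p adjusted over 13818 probes of 0.0419. The IVF-ET mean was -0.06 ± 0.16 (n = 4) and the AI mean 0.05 ± 0.15 (n = 5). In the SCNT group 252 probes passed, 1.82% of those tested, 146 of them negative.

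That call for CDKN1C lay close to the threshold. Leaving out 1 animal at a time, the adjusted p ran from 0.0182 to 0.145 and the mean from -0.78 to -0.52. It ended without AI replicate 2 or 4, without any 1 of the 4 IVF-ET animals, and without SCNT replicate 1, 3, 4 or 5. Without SCNT replicate 1 only 2 probes passed in all, in place of 252. On single arrays the gene varied widely: with the dye effect taken off, both arrays lay on the same side in 6 of 14 animals, against a median of 7 over all probes, and in 3 of the 5 SCNT animals. With the second spot of each pair alone the adjusted p was 0.0644, and with the SCNT animals fitted alone it was 0.151.

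PHLDA2, a further maternally expressed gene of the same domain, encodes a small protein known for restraining growth of the placenta. Its probe with the lower number gave -0.07, -0.24, 0.04, 0.02 and -0.09 in AI animals, 0.23, 0.06, -0.03 and 0.30 in IVF-ET animals and -0.25, 0.14, -0.0035, -0.01 and -0.08 in SCNT animals. The groups overlapped, and the means of -0.07 ± 0.08, 0.14 ± 0.08 and -0.04 ± 0.08 (SE) had adjusted p of 0.9999, 0.755 and 0.853 in limma. The other PHLDA2 probe had means of -0.25 ± 0.10 in AI, 0.17 ± 0.12 in IVF-ET and -0.10 ± 0.10 in SCNT animals, with adjusted p of 0.9999, 0.806 and 0.724. On that probe all 5 AI animals were negative, from -0.60 to -0.04, and IVF-ET minus AI was 0.43 ± 0.16 (limma p 0.0152, adjusted 0.442), against 0.21 ± 0.11 (adjusted p 0.668) on the first probe. With the AI sign turned these differences were -0.08 and 0.07. The probes lay on the same side of 0 in 7 of 14 animals and correlated at r = 0.29 over these 14. The groups cannot be ordered for PHLDA2 from these values.

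**Figure D1:**
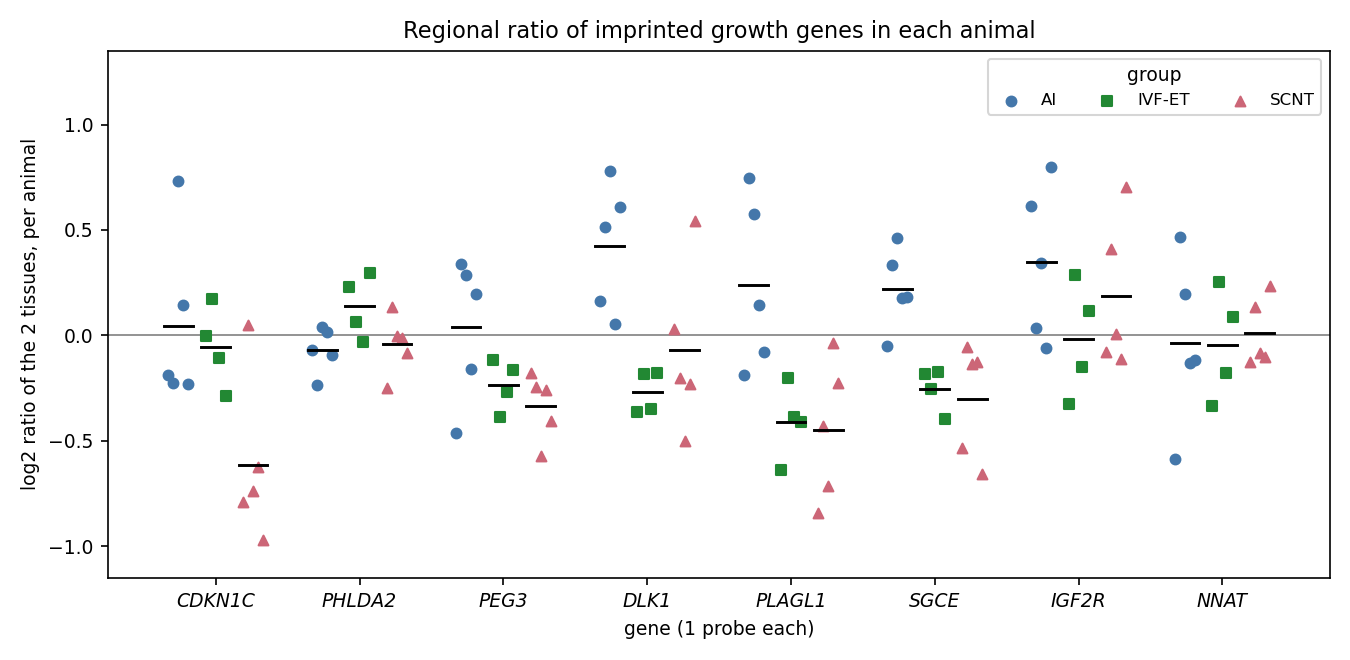
The log2 ratio between the 2 tissues (y axis) is plotted for each animal and each of the 8 genes (x axis, 1 probe a gene), with circles for AI, squares for IVF-ET and triangles for SCNT animals and a black line at each group mean. For CDKN1C 4 of 5 SCNT animals lie between -0.97 and -0.62, below all others, and for SGCE and PLAGL1 the IVF-ET and SCNT animals all lie below 0.

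CDKN1C and PHLDA2 lie in the KCNQ1 imprinted domain. In the RefSeq gene order of assembly ARS-UCD2.0, NAP1L4, PHLDA2, SLC22A18, CDKN1C and KCNQ1 are successive protein-coding genes, and the array measured all 5. SLC22A18, a membrane transporter that lies between the pair, averaged -0.01 ± 0.09 in AI, 0.17 ± 0.10 in IVF-ET and 0.04 ± 0.09 in SCNT animals (SE). KCNQ1, a potassium channel whose locus carries the control region of the domain, had means of -0.34 ± 0.19, 0.06 ± 0.21 and 0.02 ± 0.19. NAP1L4, a histone chaperone, had means of 0.21 ± 0.18, -0.04 ± 0.20 and -0.09 ± 0.18 on 1 of its 2 probes. The other probe is not given here. SLC22A18, KCNQ1 and NAP1L4 are themselves in the list of other imprinted genes described below. On the probes used, none of these neighbours passed the test in any group (lowest adjusted p 0.734 in limma). On these probes CDKN1C thus stood alone among the 5 in passing it in SCNT animals. Whether its ratio differed from that of its neighbours was not tested.

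**Figure D2:**
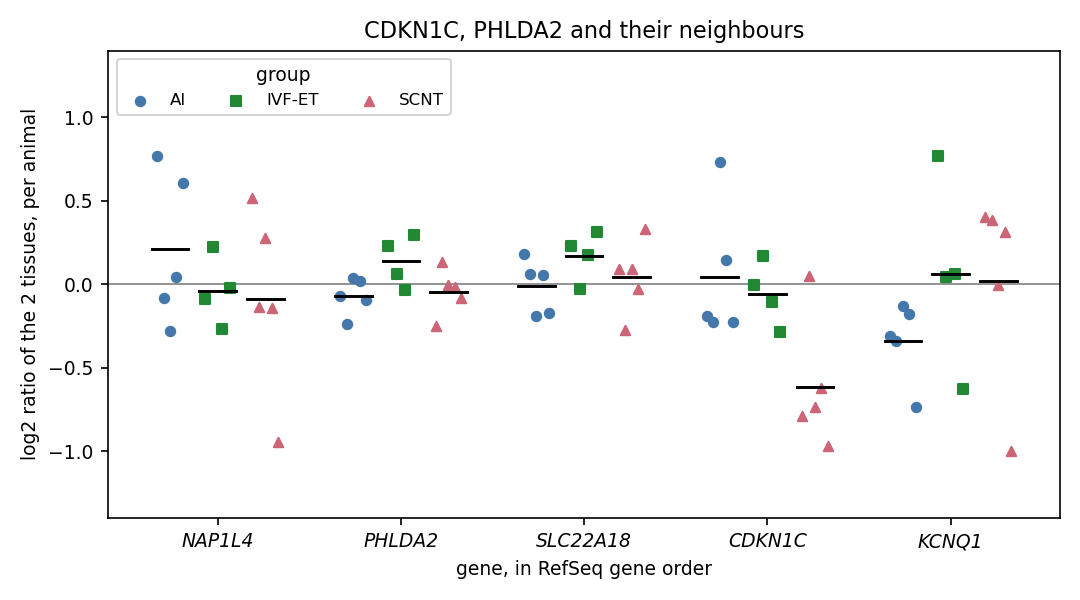
The log2 ratio of each animal (y axis) is plotted for 5 successive protein-coding genes of the KCNQ1 domain (x axis, in RefSeq order, not to scale), with circles for AI, squares for IVF-ET, triangles for SCNT animals and a black line at each group mean. The SCNT mean of CDKN1C is -0.61, while the SCNT means of the other 4 genes lie between -0.09 and 0.04.

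PLAGL1 encodes a zinc finger factor, also called ZAC1, that halts the cell cycle and is known to regulate other imprinted genes. Its ratio was -0.84, -0.43, -0.71, -0.04 and -0.23 in SCNT replicates 1 to 5. In IVF-ET replicates 1, 2, 4 and 5 it was -0.64, -0.20, -0.39 and -0.41. In AI replicates 1 to 5 it was -0.19, 0.75, 0.58, 0.14 and -0.08. All 9 SCNT and IVF-ET animals were negative, and the AI animals lay on both sides. The SCNT mean was -0.45 ± 0.14 (SE, limma p 0.00453, adjusted 0.109), the IVF-ET mean -0.41 ± 0.15 (p 0.0158, adjusted 0.491) and the AI mean 0.24 ± 0.14 (p 0.0961, adjusted 0.9999). None of these passed after adjustment.

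In the side of 0 on which they lay, the 2 arrays of an animal agreed for PLAGL1 as for no other gene of the 8. With the mean dye effect taken off, both arrays lay on the same side in 14 of 14 animals, and in 13 of 14 with it kept. Of all probes tested, 11 (0.0796%) had both arrays on the same side in every animal, against a median of 7 animals. The 11 also include PTN, a secreted growth factor, and FST, which binds activin. This count was chosen after the values were seen and was computed over all probes. By the SD between the arrays of an animal, PLAGL1 stood at 0.34 in AI, 0.22 in IVF-ET and 0.19 in SCNT animals. That SD was smaller for PHLDA2 (0.14) and PEG3 (0.31) in AI animals. In IVF-ET animals it was smaller for SGCE (0.12) and PEG3 (0.13). In the animal left out of the fit, IVF-ET replicate 3, PLAGL1 read 0.69 on 1 array and -1.24 on the other as deposited, although both carry the same dye label. As deposited, the arrays of that animal correlated at r = -0.32 over probes.

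SGCE encodes epsilon-sarcoglycan, a membrane protein of the dystrophin-associated complex, and shares its promoter region with the imprinted gene PEG10. It read -0.54, -0.06, -0.14, -0.13 and -0.66 in SCNT animals, -0.18, -0.25, -0.17 and -0.40 in IVF-ET animals and -0.05, 0.34, 0.46, 0.18 and 0.18 in AI animals. The SCNT and IVF-ET animals were all negative and the AI animals positive but for replicate 1. The means were -0.30 ± 0.10 (p 0.00662, adjusted 0.132), -0.25 ± 0.11 (p 0.0328, adjusted 0.572) and 0.22 ± 0.10 (p 0.036, adjusted 0.9999, all limma). PEG10, its neighbour in the RefSeq order, was not analysed here. CASD1 on its other side, a sialic acid O-acetyltransferase, had means of 0.22 ± 0.18 in SCNT, 0.23 ± 0.20 in IVF-ET and -0.07 ± 0.18 in AI animals, with adjusted p from 0.634 to 0.9999.

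PEG3 encodes a large zinc finger protein expressed from the paternal copy. Its main probe read -0.18, -0.25, -0.57, -0.26 and -0.41 in SCNT animals, -0.12, -0.39, -0.27 and -0.16 in IVF-ET animals and -0.46, 0.34, 0.29, -0.16 and 0.20 in AI animals. All SCNT and IVF-ET values were negative, but the lowest AI animal lay below all of these except SCNT replicate 3. The means were -0.33 ± 0.10 (adjusted p 0.124), -0.23 ± 0.12 (0.665) and 0.04 ± 0.10 (0.9999). The other PEG3 probe had means of -0.23 ± 0.14, -0.14 ± 0.16 and 0.08 ± 0.14, with adjusted p of 0.49, 0.936 and 0.9999. It was positive in 2 of 5 SCNT and 2 of 4 IVF-ET animals. The probes correlated at r = 0.60 over the 14 animals and had the same sign in 8.

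DLK1 encodes a membrane-bound relative of the Notch ligands, found on preadipocytes and many fetal cells. In AI animals it read 0.16, 0.51, 0.78, 0.05 and 0.61, in IVF-ET animals -0.36, -0.18, -0.35 and -0.18, and in SCNT animals 0.03, -0.20, -0.50, -0.23 and 0.54. The AI animals were all positive, the IVF-ET animals all negative and the SCNT animals spread over both. The means were 0.42 ± 0.13 in AI (p 0.00425, adjusted 0.9999), -0.27 ± 0.14 in IVF-ET (p 0.0762, adjusted 0.698) and -0.07 ± 0.13 in SCNT animals (p 0.583, adjusted 0.855). Only 5 of 14 animals had both arrays on the same side, and the SD between the arrays of an AI animal was 0.87, above the mean itself.

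IGF2R encodes the receptor that clears the growth factor IGF2 from the cell surface and carries enzymes tagged with mannose 6-phosphate to lysosomes. It read 0.62, 0.04, 0.34, -0.06 and 0.80 in AI animals, -0.33, 0.29, -0.15 and 0.12 in IVF-ET animals and -0.08, 0.41, 0.0074, -0.11 and 0.70 in SCNT animals. The groups overlapped. The AI mean was 0.35 ± 0.14 (p 0.0247, adjusted 0.9999), the IVF-ET mean -0.02 ± 0.16 (adjusted 0.999) and the SCNT mean 0.19 ± 0.14 (adjusted 0.596).

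NNAT encodes neuronatin, a small membrane proteolipid that acts on calcium stores and is known from brain and fat tissue. It read -0.59, 0.47, 0.20, -0.13 and -0.12 in AI animals, -0.34, 0.25, -0.18 and 0.09 in IVF-ET animals and -0.13, 0.13, -0.09, -0.10 and 0.23 in SCNT animals. Its means of -0.03 ± 0.12, -0.04 ± 0.14 and 0.01 ± 0.12 were the closest to 0 among the 8 genes in the AI and SCNT groups. The 95% interval of the SCNT mean ran from -0.25 to 0.27. NNAT lies within BLCAP, which had means of -0.0051 ± 0.10, -0.03 ± 0.11 and 0.01 ± 0.10.

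Across the 8 genes, the negative side held 6 in SCNT and 7 in IVF-ET animals and 2 in AI animals. The medians of their means were -0.19 in SCNT, -0.15 in IVF-ET and 0.13 in AI animals, where all probes had medians of -0.0005, 0.0011 and 0.0054. In IVF-ET and AI animals no probe passed after adjustment (0% of those tested in both), so a count of 0 for the 8 genes says nothing about them. At an unadjusted limma p under 0.05, the SCNT group held 4 of the 8 (PEG3, CDKN1C, PLAGL1 and SGCE) against 14.8% of all probes. The IVF-ET group held 2 of 8 (PLAGL1 and SGCE) against 7.95%, and the AI group 3 of 8 (DLK1, IGF2R and SGCE) against 4.37%. PEG3, PLAGL1 and SGCE were negative in every SCNT animal, as were 6.98% of all probes. The same 3 and DLK1 were negative in every IVF-ET animal, as were 11% of all probes. For PEG3 these counts rest on its main probe. The other PEG3 probe was positive in 2 of 5 SCNT and 2 of 4 IVF-ET animals. Its unadjusted limma p in SCNT animals was 0.123. DLK1 alone of the 8 was positive in every AI animal, as were 2.74% of all probes.

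Over all 14 animals together none of the 8 passed, nor did any other probe (0%). At an unadjusted limma p under 0.05 stood 3 of the 8 against 9.52% of all probes: PEG3 at -0.18 ± 0.06 (adjusted p 0.328), PLAGL1 at -0.21 ± 0.08 (0.408) and CDKN1C at -0.21 ± 0.09 (0.436). The other PEG3 probe stood at -0.10 ± 0.08, with an unadjusted limma p of 0.27. With the sign of the AI animals turned, PLAGL1 stood at -0.37 ± 0.08 with an adjusted p of 0.0217, and SGCE also passed, as did 439 probes in all (3.18%).

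The comparisons between groups asked whether the ratio between the tissues depended on how the pregnancy was made. In SCNT minus IVF-ET no probe passed (0%), and 1 of the 8 had an unadjusted limma p under 0.05, against 4.41% of all probes. This was CDKN1C, with a difference of -0.56 ± 0.22 (p 0.0212, adjusted 0.915). No gene of the 8 had SCNT and IVF-ET animals that did not overlap, as 2.25% of all probes did. For PLAGL1 the difference was -0.04 with a 95% interval from -0.47 to 0.39, and for SGCE it was -0.05, from -0.36 to 0.26. These intervals include differences as large as the group means, so likeness between these groups was not shown.

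SCNT minus AI and IVF-ET minus AI share the AI animals, so their values are not independent. In SCNT minus AI 0.948% of probes passed, and none of the 8. SGCE came nearest at -0.52 ± 0.14 (limma, adjusted p 0.0867), followed by PLAGL1 at -0.69 ± 0.19 (0.109), CDKN1C at -0.66 ± 0.21 (0.147), DLK1 at -0.50 ± 0.18 (0.224) and PEG3 at -0.37 ± 0.15 (0.279). These 5 of 8 had an unadjusted p under 0.05, against 12.9% of all probes. On the other PEG3 probe the difference was -0.31 ± 0.20, with an unadjusted limma p of 0.138. SGCE was the 1 gene whose SCNT animals all lay below the AI animals, as in 1.65% of all probes, and the gap was between -0.06 and -0.05. Without AI replicate 1, PLAGL1 (-0.80) and SGCE (-0.59) passed, with adjusted p of 0.0489 and 0.0455 and 1.95% of all probes passing. Without SCNT replicate 5 DLK1 passed (-0.65, adjusted p 0.0393), as did 1.74% of all probes. With other animals left out, the limma adjusted p reached 0.285 for PLAGL1, 0.238 for SGCE and 0.49 for DLK1.

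In IVF-ET minus AI 0.0579% of probes passed, and again none of the 8. DLK1 had a difference of -0.69 ± 0.19 (limma, adjusted p 0.251), SGCE of -0.47 ± 0.15 (0.315) and PLAGL1 of -0.65 ± 0.20 (0.331). These 3 of 8 had an unadjusted p under 0.05, against 8.37% of all probes. Their IVF-ET animals lay below all AI animals, as in 1.85% of all probes. For PLAGL1 that gap was narrow, from -0.20 to -0.19.

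With the sign of the AI animals turned, none of the 8 passed in either comparison, nor did any other probe (0%). SCNT minus AI then stood at -0.57 for CDKN1C, -0.29 for PEG3, -0.21 for PLAGL1 and -0.08 for SGCE, and DLK1 and IGF2R changed side to 0.35 and 0.53. IVF-ET minus AI then stood at -0.17 for PLAGL1, -0.03 for SGCE and 0.15 for DLK1. The differences of SGCE and PLAGL1 from the AI group therefore depend on the sign given to that group as a whole. Its animals were not alike in their r with the SCNT profile.

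**Figure D3:**
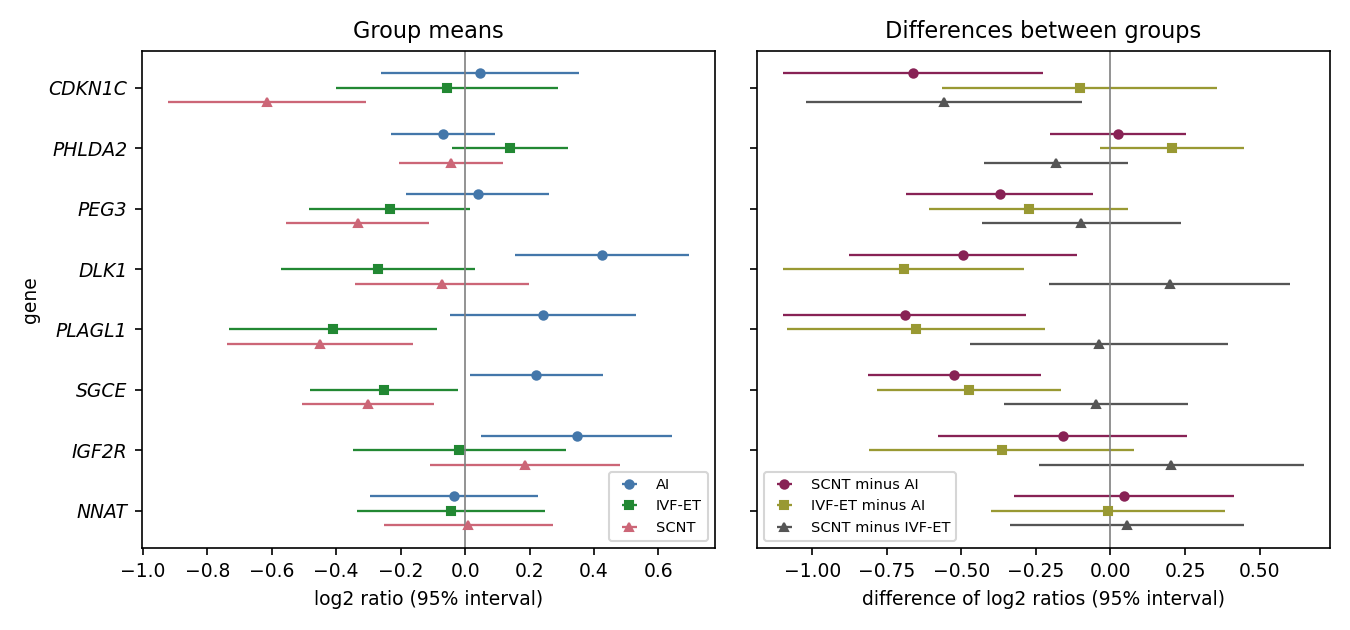
Points are means of the log2 ratio per group (left) and differences between groups (right) for 8 genes, with 95% intervals from the limma fit as bars and the genes on the y axis. In the left panel the SCNT interval of CDKN1C runs from -0.92 to -0.31, and in the right panel every interval of SCNT minus IVF-ET except that of CDKN1C includes 0.

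The deposited values may instead be ratios of the dyes, Cy5 over Cy3, which would turn 1 array of each animal. The 2 readings gave different genes. For DLK1 the array with the caruncle in Cy3 read lower than the other array in 13 of 14 animals, with a mean difference of -1.08 ± 0.91 (SD). For PEG3 it read lower in 2 of 14 animals, and the mean difference was 0.50 ± 0.47 (SD) in the other direction. Read as dye ratios, DLK1 stood at -0.54 ± 0.11 (SE) over all animals with a limma adjusted p of 0.00354, and PEG3 at 0.25 ± 0.06 with 0.0159. Under that reading 2124 probes (15.4%) passed over all animals, and none of the 8 passed in a single group. Apart from how groups are weighted, this mean over all animals is the dye effect that the main fit takes off. Whether these probes carry a dye effect or a tissue ratio was not tested. CDKN1C then stood at 0.11 in SCNT animals (adjusted p 0.847). For PLAGL1 the mean difference between the arrays was -0.03 ± 0.39 (SD), near 0.

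**Figure D4:**
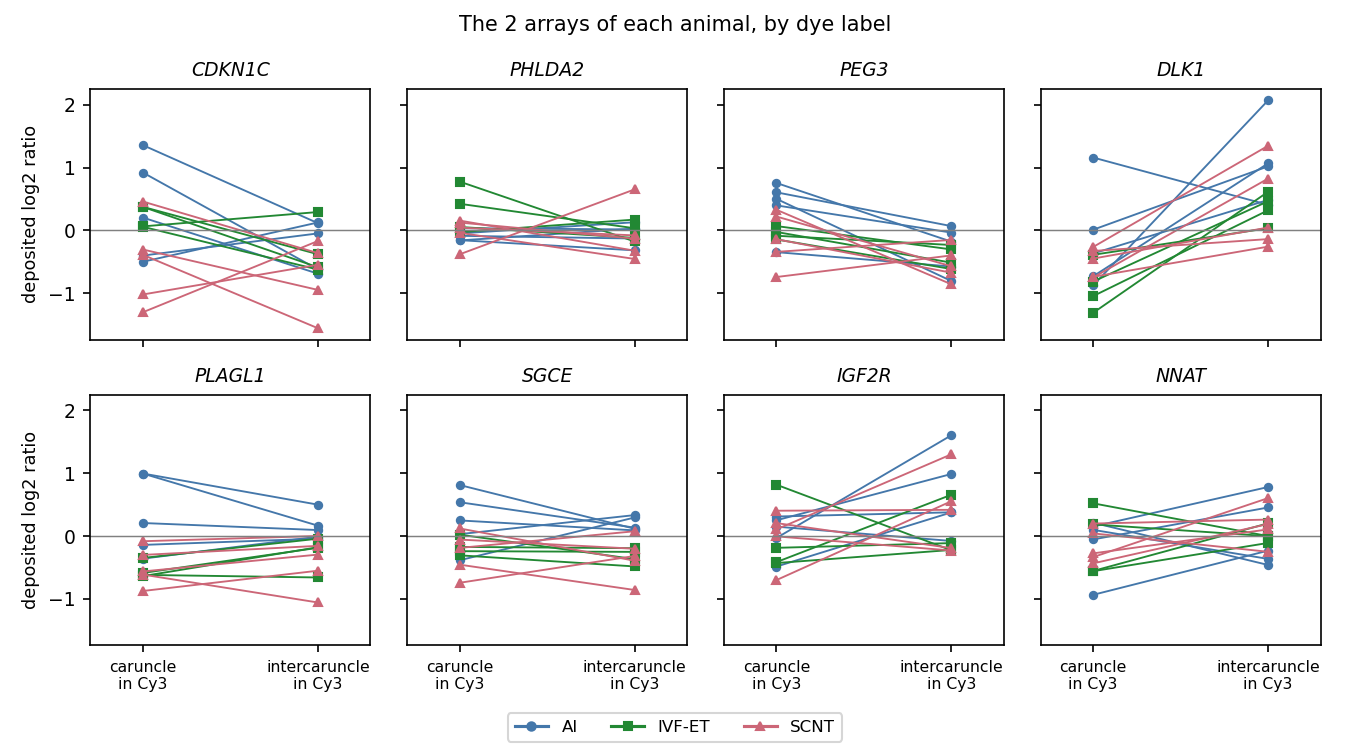
Each line joins the 2 arrays of an animal, with the deposited log2 ratio on the y axis and the tissue labelled with Cy3 on the x axis, for 8 genes and 14 animals, coloured by group. The lines of DLK1 rise from left to right in 13 of 14 animals, and those of PLAGL1 run in both directions, with a mean difference of -0.03 between the arrays.

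Stromal fibroblast markers lay on the same side as several of these genes. Of 14 measured markers, 5 passed on the negative side in SCNT animals, where 1.82% of all probes passed: COL1A1, COL1A2, COL3A1, COL6A3 and THY1. The largest by p was COL6A3, a chain of collagen VI, at -1.69 ± 0.19 (limma, adjusted p 0.00263). The median of the list ran from -1.01 to -0.28 over SCNT animals, from -0.66 to -0.18 over IVF-ET animals and from -0.08 to 0.62 over AI animals. PLAGL1, SGCE and PEG3 thus lay on the negative side in the same groups as the stromal markers, and their part in these ratios was not tested. The SCNT replicates with the lowest stromal medians were 5 (-1.01), 1 (-0.74) and 4 (-0.71), and the CDKN1C values there were -0.97, -0.79 and -0.62. In replicates 2 and 3 the stromal medians were -0.41 and -0.28, and CDKN1C was at 0.05 and -0.74, so the order of the 5 animals was not the same.

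Trophoblast markers bear on whether fetal tissue was taken with the maternal tissue. Of 21 measured, none passed in limma, with 6 at an unadjusted p under 0.05 in SCNT animals, against 14.8% of all probes. TKDP4 and TKDP1, proteins of the trophoblast, stood at -0.97 ± 0.29 (adjusted p 0.0982) and -1.08 ± 0.32 (0.1) in SCNT animals. The list's median over SCNT animals ran from -1.06 in replicate 3 to 0.18 in replicate 2. It ran from -0.21 to -0.03 in IVF-ET animals and from -0.12 to 0.11 in AI animals. In SCNT replicate 3 CDKN1C stood at -0.74 and PEG3 at -0.57. CDKN1C was lower still in replicates 5 and 1, at -0.97 and -0.79, where the trophoblast medians were 0.09 and -0.05. The part of trophoblast RNA in these values was not tested.

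Gland and secretory epithelium markers leaned to the positive side in IVF-ET and SCNT animals, with none of 15 passing in limma. Their median was 0.36 over IVF-ET, 0.16 over SCNT and -0.10 over AI animals. Single animals ran from 0.18 to 0.64 in IVF-ET, from -0.27 to 0.47 in SCNT and from -0.46 to 0.19 in AI animals. The IVF-ET animals were thus all positive, but the SCNT and AI animals lay on both sides. Within the list, 11 markers were positive and 4 negative in IVF-ET animals. The markers therefore do not settle the direction of the ratio. At an unadjusted p under 0.05 stood 7, 3 and 1 of the 15, against 7.95%, 14.8% and 4.37% of all probes. The adhesion protein CDH1 stood at 0.77 ± 0.19 in SCNT animals (adjusted p 0.0516), and the secreted SPP1 at -1.03 ± 0.24 in IVF-ET animals (0.222). Leukocyte markers (11 measured), smooth muscle markers (9) and endothelial markers (9) also had none that passed. In SCNT animals their medians were 0.09, -0.12 and 0.0039, with 0, 1 and 0 at an unadjusted p under 0.05, against 14.8% of all probes. In AI animals CNN1, a calponin of smooth muscle, stood at 0.51 ± 0.17, the endothelial receptor KDR at 0.24 ± 0.08 and the macrophage receptor CD163 at 0.30 ± 0.15 (adjusted p 0.9999 for each). In SCNT animals CALD1, a further smooth muscle marker, stood at -0.31 ± 0.10 (0.147) and the leukocyte antigen PTPRC at 0.24 ± 0.12 (0.346). ESAM, an endothelial adhesion protein, stood at 0.20 ± 0.10 in IVF-ET animals (0.693). A ratio gives no level in either tissue, so whether a marker was present at all cannot be read from it.

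Of 54 other imprinted genes listed, 21 were measured and 2 passed on the negative side in SCNT animals, where 1.82% of all probes passed. They were H19, a non-coding RNA, at -2.47 ± 0.34 (limma, adjusted p 0.0105), and its neighbour IGF2, the growth factor cleared by IGF2R, at -0.78 ± 0.14 (0.0118). The median of the 21 was 0.04 in SCNT, -0.06 in IVF-ET and 0.0098 in AI animals. The list was made by name, and whether each gene is imprinted in bovine endometrium was not tested. In SCNT animals 8 of the 21 were negative and 13 positive, where 6 of the 8 genes above were negative.

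A set of genes that are co-expressed with PLAGL1 in the mouse is known as the imprinted gene network. Its median lay on the same side as PLAGL1 in each group. Of 14 measured, 5 passed on the negative side in SCNT animals, where 1.82% of all probes passed. These were H19, IGF2, PTN (-1.86 ± 0.33, limma, adjusted p 0.0118) and the collagen chains COL3A1 (-1.70 ± 0.31, 0.0123) and COL1A2 (-0.86 ± 0.19, 0.0308). The list had a median of -0.69 in SCNT, -0.37 in IVF-ET and 0.23 in AI animals. In SCNT minus AI 6 of 14 passed, where 0.948% of all probes did, SPARC being the sixth. With the AI sign turned none of the 14 passed, nor did any other probe: SPARC went from -1.21 to 0.010, COL1A2 from -1.25 to -0.46 and PTN from -2.11 to -1.61. Of the 14 genes, 7 are also in the stromal fibroblast list, among them 2 of the 5 that passed in SCNT animals. H19 and IGF2 were already counted among the other imprinted genes.

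IGF signalling, the pathway that IGF2R restrains, had 11 genes measured. IGF2 and IGFBP6, a binding protein with a preference for IGF2, passed on the negative side in SCNT animals, against 1.82% of all probes, IGFBP6 at -1.35 ± 0.26 (limma, adjusted p 0.0143). Both also passed in SCNT minus AI, as 0.948% of all probes did, at -0.85 for IGF2 and -1.66 for IGFBP6. With the AI sign turned these stood at -0.72 and -1.05 and did not pass (adjusted p 0.69 and 0.763). Of 19 genes of mannose 6-phosphate sorting and lysosomal hydrolases, which IGF2R carries, none passed, with 4 at an unadjusted limma p under 0.05 in SCNT animals, against 14.8% of all probes. Their median was -0.14 in SCNT animals, whereas IGF2R itself stood at 0.19. The protease CTSB came nearest, at -0.37 ± 0.10 (adjusted p 0.087), and CTSH stood at -0.42 ± 0.17 (0.255).

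CDKN1C acts on the cyclin-dependent kinases. Of 14 genes of the cyclin-dependent kinase machinery none passed in limma, with 2 at an unadjusted p under 0.05 in SCNT animals, against 14.8% of all probes, and the median there was -0.02. The kinase CDK4 stood at -0.33 ± 0.12 (adjusted p 0.178), and the inhibitor CDKN2C at -0.22 ± 0.10 in IVF-ET animals (0.616).

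Of 12 genes of the Notch pathway, on which DLK1 is thought to act, none passed in limma, with 4 at an unadjusted p under 0.05 in SCNT and 0 in IVF-ET animals, against 14.8% and 7.95% of all probes. NUMB, an inhibitor of Notch, was nearest, at 0.46 ± 0.12 (adjusted p 0.0546), and RBPJ, the factor through which Notch acts on genes, stood at -0.45 ± 0.14 (0.118), both in SCNT animals. The medians were 0.07 in SCNT, 0.11 in IVF-ET and 0.0024 in AI animals.

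Of 5 genes measured of the dystrophin-associated complex, to which SGCE belongs, none passed in limma, with 1 at an unadjusted p under 0.05 in SCNT animals, against 14.8% of all probes. SGCB, beta-sarcoglycan, stood at -0.38 ± 0.13 (adjusted p 0.174) and DTNB, a dystrobrevin, at -0.15 ± 0.07 (0.355). Of 10 genes of the Sm and spliceosomal core proteins, the family of SNRPN, none passed, with 2 at an unadjusted limma p under 0.05 in SCNT animals, again against 14.8%. SNRPD3 stood at 0.41 ± 0.10 (adjusted p 0.055) and SNRPA1 at -0.35 ± 0.12 (0.151).

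Of 12 genes that keep imprints and DNA methylation, none passed in limma, with 1 at an unadjusted p under 0.05 in SCNT and 2 in IVF-ET animals, against 14.8% and 7.95% of all probes. EHMT2, a histone H3 lysine methyltransferase also called G9a, was nearest at -0.45 ± 0.11 in SCNT animals (adjusted p 0.0561). EED, a subunit of the Polycomb complex that methylates histone H3, stood at 0.40 ± 0.14 in IVF-ET animals (0.442).

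Genes whose values over the 14 animals most resembled each of the 8 were ranked by Pearson's r among 8092 other named genes, as a description without a test. All values share the same arrays, groups and dye correction, and the ranking depends on the sign of the AI animals. When the AI sign was turned before ranking, which was added once the data had been seen, 5 of the 16 genes named below stayed among the 2 closest, and for IGF2R alone the closest gene was the same. CDKN1C was closest to AXL, a receptor tyrosine kinase (r = 0.93), and to ATP6V0D1, a subunit of the vacuolar proton pump (0.92). PLAGL1 was closest to GRSF1, an RNA-binding protein of mitochondria (0.90), and to PPP2R2B, a regulatory subunit of a phosphatase (0.87). SGCE was closest to OLFML3 and MFAP2, both secreted proteins of the matrix (0.90 and 0.90), which stood at -1.20 and -0.97 in SCNT animals.

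PEG3 was closest to LOC513055 (r = 0.82) and to DKK1, a secreted inhibitor of Wnt signalling (0.81). DLK1 was closest to DACT1, which also acts in Wnt signalling (0.90), and to MALSU1, a factor of the mitochondrial ribosome (0.85). IGF2R was closest to NCEH1, a cholesterol ester hydrolase (0.92), and to ISCA2, which assembles iron-sulfur clusters (0.91). PHLDA2 was closest to LOC616254 (0.85) and ZSWIM4 (0.85), and NNAT to SFMBT2 (0.77), itself imprinted in the mouse placenta, and to the chemokine receptor CXCR4 (0.75). NNAT thus had the lowest r of the 8 genes with its closest gene.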

How the data were processed

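Per the labels' protocols, column-purified total RNA was copied to aminoallyl cDNA, which was dyed with Cy3 (channel 1) or Cy5 (channel 2). The deposited values are log ratios per spot that the authors had already centred, taken here as log2; the normalisation, base, channel order and print or scan batches are not given in the sources used here. Array numbers run with the groups, so group and array order are confounded and cannot be told apart. Adjacent duplicate spots were averaged into 13824 probes, of which 8667 had 1 symbol in the platform annotation, 83 had several and 5074 are not listed. Of the annotated probes, 8620 matched the RefSeq table of ARS-UCD2.0, which updated 0 symbols. No coordinates or sequences are given.

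Arrays were median-centred, each probe's mean dye effect was subtracted, and the animal's 2 arrays were then averaged. A probe needed a value in 4 animals of AI and SCNT and in 3 of IVF-ET, which left 13818. limma 3.58.1 in R 4.3.3 (lmFit, eBayes) fitted a mean per group with a shared spread; two-sided p-values were adjusted by Benjamini-Hochberg per comparison over all probes, at 0.05. The labels name animals but no farm or date, so p-values measure the spread between these animals. Of several probes of a gene, the one with most values was used, then the lowest number. The others are given for the 8 genes only, not for neighbours or genes of the other lists. From each list, up to 4 genes past the threshold in a group were named, or else the 2 with the smallest p; further passing genes of the stromal and network lists, PTN and FST in the count of arrays on the same side, were named after their values were seen. The script was tested on simulated data. The genes and lists were chosen with earlier results of these data known. Alternatives covered the reading of the ratio, the AI sign, IVF-ET replicate 3, spots, filters, scaling, the variance model, single probes and leaving out each animal; the AI sign in the ranking of like genes was added after seeing the data.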

Additional observations from a re-analysis of the deposited data

Results flagged for a closer look

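DLK1 stood out because its ratio lay on opposite sides in a pair of groups: all 5 AI animals were positive, from 0.05 to 0.78, and all 4 IVF-ET animals negative, from -0.36 to -0.18. These are means of 2 arrays, which lay on the same side in only 1 of the 5 AI and 2 of the 4 IVF-ET animals. The difference, IVF-ET minus AI, was -0.69 ± 0.19 (limma, p 0.00225, adjusted p 0.251), so it did not pass the test over all probes, and it stood at 0.15 with the sign of the AI animals turned and at -0.038 with the values read as dye ratios. No single animal of the 8 genes stood apart from its group by Dixon's criterion.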

How the results depend on the processing

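Of 585 alternative values for 21 single-gene results, 549 kept their direction and side of the threshold, 13 lost the call, 7 gained one and 16 changed sign. The number of the 8 genes that passed in SCNT animals was 1 in the reported analysis. It was 0 under the dye-ratio reading and when IVF-ET replicate 3 entered with the sign of its second array turned, but there no probe at all passed. It was also 0 with groups fitted alone and with the second spot alone, where 74 (0.535%) and 222 (1.61%) of all probes passed, in place of 252. It was 2 (CDKN1C and PLAGL1) with arrays as samples and the animal as a random block (consensus correlation 0.107; 519 probes, 3.76%), and 0 to 1 on leaving out 1 animal. Over all animals it was 0, but 2 with dye ratios (PEG3, DLK1; 15.4% of all probes) and 2 with the AI sign turned (PLAGL1, SGCE; 3.18%). In SCNT minus AI it was 0, but 2 with arrays as samples (PLAGL1, SGCE; 2.17%) and 0 to 2 on leaving out 1 animal. In the 4 other comparisons it stayed at 0. Read as dye ratios, the values that changed sign were, in SCNT animals, PEG3 (0.20), CDKN1C (0.11) and SGCE (0.043). In IVF-ET animals SGCE stood at 0.078, and in AI animals DLK1 at -0.58 and IGF2R at -0.31. Over all animals PEG3 stood at 0.25 and CDKN1C at 0.22. In SCNT minus AI DLK1 stood at 0.15 and SGCE at 0.014, and in IVF-ET minus AI SGCE at 0.049. With the AI sign turned they were, by construction, DLK1 (-0.42), IGF2R (-0.35) and SGCE (-0.22) in AI animals, and DLK1 in SCNT minus AI (0.35) and IVF-ET minus AI (0.15). The cause of the other changes was not tested. The ratio pairs the tissues within each animal. Animals could not be paired between groups, because the replicate numbers name different animals in each group. Signal over background was not available for weighing dim probes, since scanner values were not used here.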
